A study of Mus musculus with 6 samples.

Results

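The 10 mouse genes described here are the AP-1 genes Fos, Fosb, Jun, Junb and Jund, and the early genes Nr4a1, Ier2, Dusp1, Btg2 and Klf4. They were taken as every probe set whose platform annotation names exactly 1 gene symbol and that symbol is among the 10, which gave 14 of the 45037 probe sets that are not array controls. One group had undergone transverse aortic constriction (TAC), a banding of the aortic arch that puts a lasting pressure load on the left ventricle, and the other a sham operation; all were male C57/Bl6 animals, studied 8 weeks after surgery. Their stellate ganglia, which hold most of the sympathetic neurons that project to the heart, were measured on 3 TAC and 3 sham arrays (A, B and C in each group), with RNA from both ganglia of 1 animal per array. Ages, and whether other treatments were given, were not stated in the sources used here.

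Immediate-early genes are transcribed within minutes of a stimulus without new protein synthesis, and most of their mRNAs are short-lived. In sympathetic neurons, synaptic input, depolarisation and growth factors switch them on through calcium, cAMP and mitogen-activated protein (MAP) kinase signals that reach the transcription factors CREB and SRF. The products of the Fos and Jun families pair through leucine zippers into AP-1, a factor that binds DNA as a Fos-Jun or Jun-Jun dimer, while other early genes encode zinc finger factors, nuclear receptors, or proteins such as Dusp1 that switch the inducing kinases off.

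All values are log2 of the deposited intensity. A probe set was dim if its mean over the 6 arrays was under 4, and only probe sets at or above that floor were tested; "called" means an adjusted p under 0.05 in limma over all 17550 tested probe sets. Of the 14 member probe sets, 10 were tested, covering 8 genes, and 4 were dim: the only probe sets of Fosb and Junb, and the second ones of Jund and Klf4. The member nearest above the floor was the second Btg2 probe set, with a mean of 4.23, and the nearest below it was Junb, with 3.24.

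Between arrays, Pearson's r across tested probe sets was 0.980 to 0.994. TAC B stood furthest from the rest, with a mean correlation of 0.984, and it was the highest of the 6 arrays for 25.7% of all tested genes. The ganglion label held: all 17 measured sympathetic neuron markers passed the floor, with tyrosine hydroxylase (Th) at 13.77 to 13.88 on the TAC arrays and 13.55 to 13.66 on the sham arrays. Transcripts of neighbouring tissue varied between animals. The summed linear intensity of 8 skeletal muscle genes was 90.7 to 254 on the TAC arrays and 77.3 to 1355 on the sham arrays, and that of 5 fat genes was 1583 to 5043 on TAC and 2126 to 7955 on sham arrays, with the highest fat sums on TAC B and sham C. Tnni2, Mylpf, Tnnt3 and Myh2 of muscle and Lep of fat were dim. Some marker sums also differed between the groups, though not all genes of a list did. The summed intensity of the 17 neuron markers was 161746 to 169449 on TAC and 147527 to 156999 on sham arrays, but 10 of the 17 had a higher and 7 a lower mean in TAC, with a median difference of 0.03, and the largest was that of Npy, at 0.77. The sum of 10 glial markers, of which Gfap was dim, was 28550 to 35531 on TAC and 35981 to 37973 on sham arrays, but of the 9 tested, 4 had a higher and 5 a lower mean in TAC, and Fabp7 alone did not overlap. The median log2 intensity over the tested glial markers was 11.06, 11.38 and 11.05 on TAC and 11.01, 10.79 and 11.24 on sham arrays, so the groups overlapped. No marker of any cell type was called.

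The promoter sequences of 4 members are shown because the results turn on these genes: Fos differed most between animals, Dusp1 and Btg2 had the largest higher means after TAC, and Nr4a1 was the tested member whose TAC arrays all lay below the sham arrays. Each is the 250 bases before the annotated start, 5′ to 3′ on the gene's strand, from RefSeq in build GRCm38.p6: chr12:85473640-85473889 on the plus strand for Fos, chr17:26508473-26508722 on the minus strand for Dusp1, chr1:134079156-134079405 on the minus strand for Btg2 and chr15:101266596-101266845 on the plus strand for Nr4a1. Capitals mark matches on either strand to the cAMP response element (CRE) TGACGTCA, its core TGACG, the GC box GGGCGG and the TATA box TATAAA; the AP-1 site TGANTCA and the CArG box, to which SRF binds, were searched as well. Neighbouring matches run together where they overlap or abut, and each full CRE holds the core on both strands.
Fos: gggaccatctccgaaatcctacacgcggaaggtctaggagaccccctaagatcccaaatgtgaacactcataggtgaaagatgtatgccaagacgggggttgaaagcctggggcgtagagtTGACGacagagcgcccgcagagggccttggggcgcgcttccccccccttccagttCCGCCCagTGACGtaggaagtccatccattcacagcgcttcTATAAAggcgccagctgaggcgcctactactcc
Dusp1: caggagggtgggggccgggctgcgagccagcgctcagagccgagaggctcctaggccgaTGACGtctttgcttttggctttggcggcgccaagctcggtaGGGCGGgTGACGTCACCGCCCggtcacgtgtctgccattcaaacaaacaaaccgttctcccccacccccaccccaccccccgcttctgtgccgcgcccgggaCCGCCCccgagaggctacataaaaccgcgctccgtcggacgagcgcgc
Btg2: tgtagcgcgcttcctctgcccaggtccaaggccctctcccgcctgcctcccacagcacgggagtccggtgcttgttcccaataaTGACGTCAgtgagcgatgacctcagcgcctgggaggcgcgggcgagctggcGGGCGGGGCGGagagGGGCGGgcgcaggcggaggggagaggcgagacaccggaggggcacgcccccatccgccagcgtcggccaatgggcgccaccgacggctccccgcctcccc
Nr4a1: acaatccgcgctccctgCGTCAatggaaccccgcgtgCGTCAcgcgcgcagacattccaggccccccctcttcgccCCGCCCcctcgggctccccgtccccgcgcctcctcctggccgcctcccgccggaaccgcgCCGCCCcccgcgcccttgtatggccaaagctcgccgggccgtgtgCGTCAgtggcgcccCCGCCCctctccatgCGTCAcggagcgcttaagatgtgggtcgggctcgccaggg

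RefSeq promoters were matched by symbol for 9 of the 10 members, all but Ier2. The core TGACG lay in 7 of these 9 windows (Btg2, Dusp1, Fos, Fosb, Junb, Klf4 and Nr4a1), against 17.8% of 32544 promoter windows of the same length. The full CRE lay in those of Btg2 and Dusp1, against 1.55% of all windows. The GC box was found in 7 of 9, against 33.0%, and the TATA box in that of Fos, against 12.3%. No member window held TGANTCA, present in 6.73% of all, or a CArG box, present in 1.48%; this says only that these letters are not in these windows. The GC content was 47.6% for the Jund window and 58.4% to 74.4% for the other member windows, with a median of 52.4% over all windows. The core, the full CRE and the GC box all hold the letters CG, and the shares over all windows were not matched for GC content. A match describes the sequence and does not show that a factor binds.

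Fos, the dimer partner of the Jun proteins and a widely used marker of recent neuronal activity, measured 8.75, 9.87 and 9.31 on TAC A, B and C and 10.40, 10.42 and 9.02 on sham A, B and C. Sham A and sham B were the highest arrays, but sham C lay below TAC B and TAC C, so the groups overlapped. The mean was 9.31 ± 0.56 in TAC and 9.94 ± 0.80 in sham (SD, n = 3 each), a difference of -0.63 (SE 0.45, 95% interval -1.72 to 0.45), or a TAC-to-sham ratio of 0.644, and limma did not call it (adjusted p = 0.655). Single arrays set its size: the difference was -1.10 without sham C and -0.35 without TAC A. Over the 6 arrays Fos spanned 1.67 on the log2 scale, a span reached by 1.29% of the 9955 tested genes. In whole ganglia, fewer cells of a type and less RNA per cell cannot be told apart, here and for every gene below.

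Fosb, which can replace Fos in AP-1, was dim, at 2.02 to 2.04 on the TAC arrays and 2.04 to 2.07 on the sham arrays. The TAC values all lay below the sham values, by a mean of 0.03, which 71.6% of all 27487 dim probe sets shared; 87.0% of the dim probe sets had a lower mean in TAC. At such values a probe set reads close to background, and the comparison gives no information on Fosb mRNA.

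Jun, the central AP-1 subunit, was measured by 2 probe sets annotated to the same transcript. The brighter, 1448694_at, measured 8.74, 8.84 and 8.64 on TAC A, B and C and 8.70, 9.05 and 8.66 on sham A, B and C. The second, 1417409_at, measured 8.29, 8.43 and 8.21 on TAC and 8.37, 8.37 and 8.07 on sham arrays. The groups overlapped in both, and the highest array was sham B in the first and TAC B in the second. The differences were -0.06 (95% interval -0.37 to 0.25) and 0.04 (95% interval -0.24 to 0.32), neither called (limma adjusted p = 0.884 and 0.921).

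Junb, which forms AP-1 dimers of its own, was dim on average but not on every array alike. It measured 3.08, 3.15 and 3.23 on the TAC arrays and 3.98, 2.89 and 3.13 on sham A, B and C. Sham A stood above the other 5 arrays, which lay within 2.89 to 3.23, and the groups overlapped.

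Jund, the Jun family member that is constitutively present in many tissues, varied least among the tested AP-1 genes. It measured 11.56, 11.54 and 11.70 on the TAC arrays and 11.45, 11.57 and 11.57 on the sham arrays. Its span of 0.25 over the 6 arrays was reached or passed by 79.3% of tested genes, and the difference of 0.07 (SE 0.08, 95% interval -0.13 to 0.27) was not called (limma adjusted p = 0.777). The second Jund probe set, 1440265_at, was dim, at 2.27 to 2.42 on TAC and 2.45 to 2.47 on sham arrays, and so shared the lower TAC values of most dim probe sets.

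**Figure D1:**
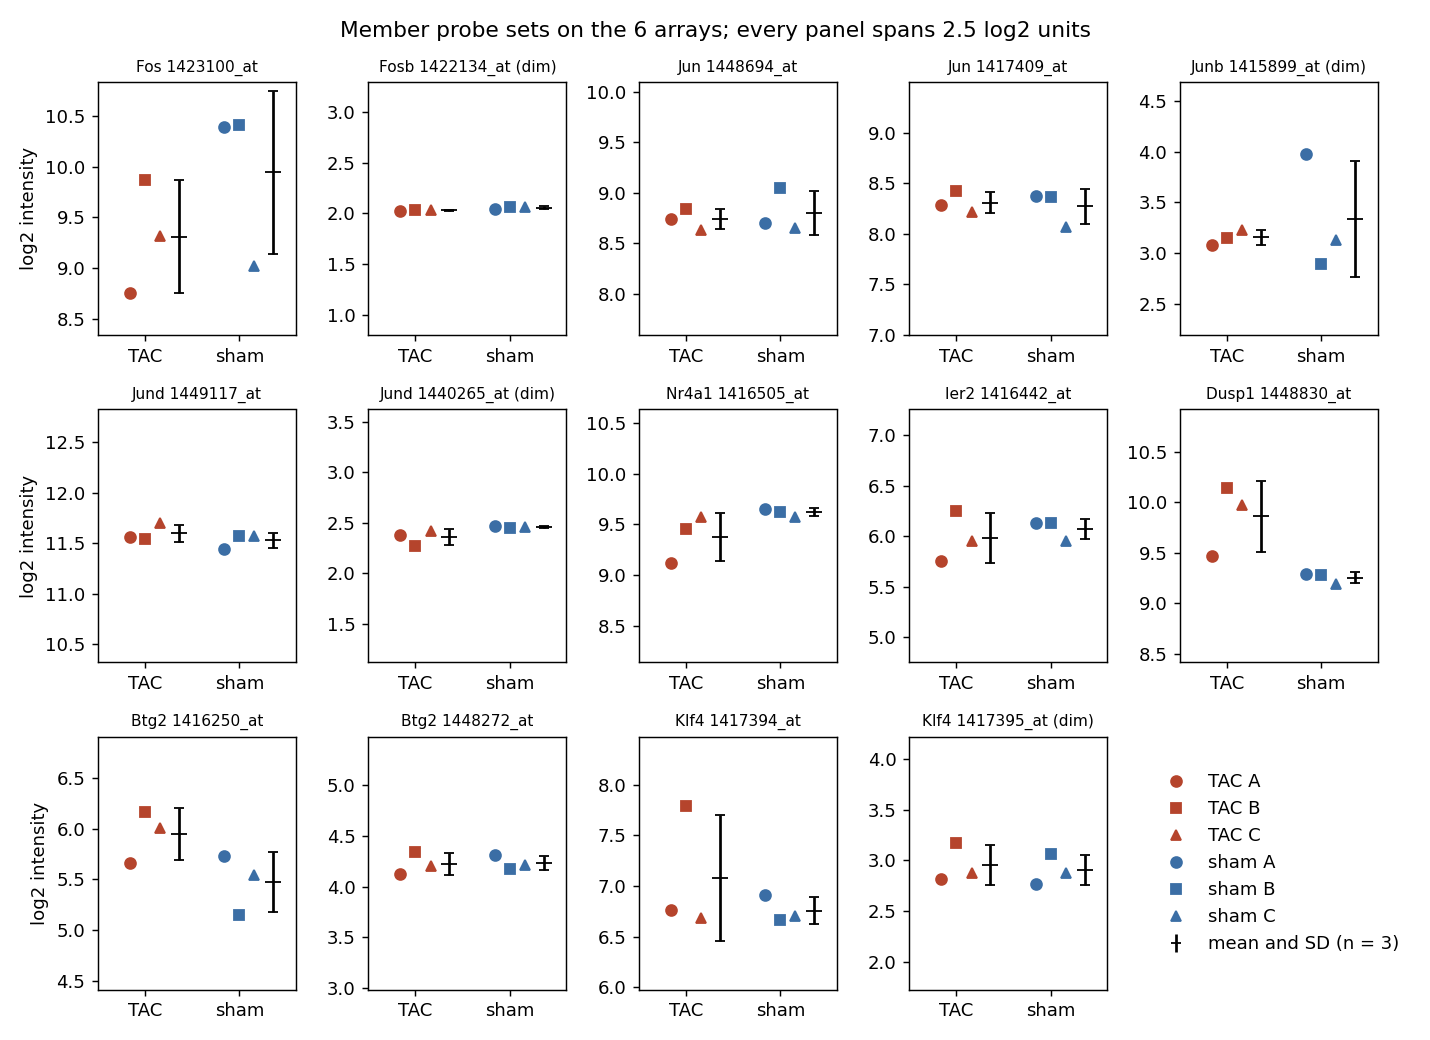
Log2 intensity of each of the 14 member probe sets by array, with TAC left of sham, a symbol for each letter, and mean with SD to the right of the points; all panels have the same height in log2 units. Fos spread over 8.75 to 10.42 with overlapping groups, Dusp1 was the tested member with every TAC array above every sham array, and Klf4 was high on TAC B.

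Dusp1, the nuclear phosphatase that inactivates MAP kinases and so limits the early response, was higher on every TAC array. It measured 9.47, 10.14 and 9.97 on TAC A, B and C, against 9.29, 9.28 and 9.19 on sham A, B and C. The groups did not overlap, and the sham arrays lay close together. The mean was 9.86 ± 0.35 in TAC and 9.26 ± 0.05 in sham (SD, n = 3 each), a difference of 0.60 (SE 0.17, 95% interval 0.18 to 1.03), or 1.52-fold. It had an unadjusted p of 0.0123 and was not called over all probe sets (limma adjusted p = 0.516); an exact permutation test of 3 arrays against 3 cannot go below 0.1, two-sided, which is the value it gave here. The sum of endothelial and mural cell markers, and the neuronal one with the mixed directions given above, were also higher on all TAC arrays. All 6 tested endothelial and mural markers had a higher mean in TAC, but only 1, the mural gene Rgs5, had groups that did not overlap. Rgs5 was the brightest of that list, at 10.60, 11.07 and 10.71 on TAC and 10.44, 10.59 and 10.48 on sham arrays, and so weighed most in its sum. The part of these cells in the Dusp1 value was not tested.

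Btg2, an antiproliferative gene whose product promotes mRNA deadenylation, differed between its probe sets. The brighter one, 1416250_at, measured 5.66, 6.17 and 6.01 on the TAC arrays and 5.73, 5.15 and 5.54 on the sham arrays. TAC B and TAC C lay above all sham arrays, and TAC A lay below sham A. Its difference was 0.47 (SE 0.19, 95% interval 0.01 to 0.93), or 1.39-fold, with an unadjusted p of 0.0467 and no call (limma adjusted p = 0.547).

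The second Btg2 probe set, 1448272_at, close to the floor and annotated to the same transcript, measured 4.13, 4.34 and 4.21 on TAC and 4.31, 4.18 and 4.22 on sham arrays. Its groups overlapped, and its difference was -0.01 (95% interval -0.22 to 0.20). The difference between the probe sets shifted by 0.48 between the groups, with an exact two-sided permutation p of 0.1 (3 arrays against 3), the smallest the design allows. The higher Btg2 level therefore rests on 1 of 2 probe sets. On the TAC arrays Dusp1 and the brighter Btg2 probe set had the same order, B highest, then C, then A. The second Btg2 probe set, Fos and Ier2 had this order too, so it is not particular to Dusp1 and Btg2.

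Klf4, a zinc finger factor with roles in differentiation that is also known from blood vessel cells, was high on a single array. The brighter probe set, 1417394_at, measured 6.76, 7.79 and 6.68 on TAC A, B and C and 6.91, 6.66 and 6.70 on sham A, B and C. TAC A and TAC C lay within the sham range. The difference was 0.32 (SE 0.30, 95% interval -0.39 to 1.04; limma adjusted p = 0.716), and without TAC B it was -0.04. The dim second probe set, 1417395_at, was also highest on TAC B, at 3.18, against 2.81 and 2.87 on TAC A and C and 2.77 to 3.07 on sham arrays. The 11 endothelial and mural cell markers also peaked there: their summed linear intensity was 2071 on TAC A, 2948 on TAC B and 2228 on TAC C, against 1900 to 2000 on sham arrays, and all 6 that passed the floor were highest on TAC B. Pecam1, Cdh5, Kdr, Tie1 and Myh11 were dim. The part of these cells in the Klf4 value was not tested.

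Nr4a1, an orphan nuclear receptor induced by activity and growth factors, measured 9.11, 9.45 and 9.57 on TAC A, B and C and 9.66, 9.63 and 9.58 on sham A, B and C. All TAC arrays lay below all sham arrays, though TAC C and sham C were nearly equal, and the sham arrays were close together. The mean was 9.38 ± 0.24 in TAC and 9.62 ± 0.04 in sham (SD, n = 3 each), a difference of -0.24 (SE 0.13, 95% interval -0.55 to 0.07) that was not called (limma adjusted p = 0.583). Without TAC A it was -0.11.

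Ier2, a nuclear early-response protein, measured 5.76, 6.25 and 5.95 on the TAC arrays and 6.13, 6.13 and 5.95 on the sham arrays. TAC B was the highest and TAC A the lowest of all arrays, so the groups overlapped. The difference was -0.09 (SE 0.14, 95% interval -0.42 to 0.25; limma adjusted p = 0.839).

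**Figure D2:**
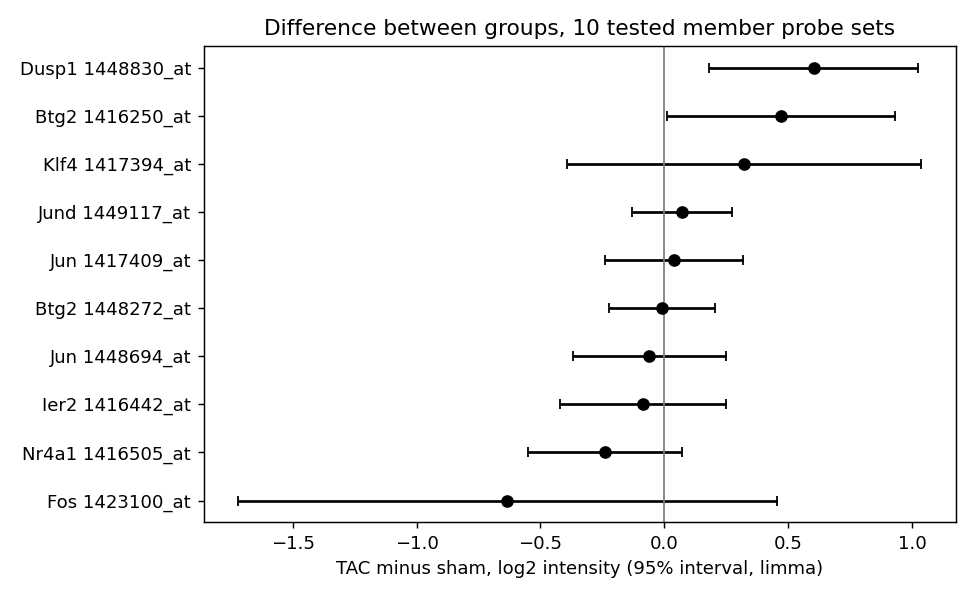
TAC minus sham difference in log2 intensity for the 10 tested member probe sets, one row each, with limma's 95% interval before any adjustment. The intervals of Dusp1 (0.18 to 1.03) and the brighter Btg2 probe set (0.01 to 0.93) lie above 0, the other 8 include 0, and that of Fos is the widest.

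Counted together, limma called 0 of the 10 tested member probe sets, where it called 0% of all tested probe sets. At an unadjusted p under 0.05 there were 2 of 10, Dusp1 and the brighter Btg2 probe set, beside 9.08% of all. Both were higher in TAC, as were 6.03% of all tested probe sets, and 0 of 10 were lower, beside 3.05%. Every TAC array lay above every sham array for 1 of 10 (Dusp1), beside 9.02% of all, and below for 1 of 10 (Nr4a1), beside 8.85%. These shares rest on 10 probe sets and are near the background. Of the 8 tested genes, 4 had a higher and 4 a lower mean in TAC, with a median difference of 0.0053, against 0.02 over all 9955 genes. The means of Fos, Nr4a1, Ier2 and Jun were lower, and those of Dusp1, Btg2, Klf4 and Jund higher.

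The members varied unequally between animals. After Fos, the span over the 6 arrays was 1.13 for Klf4, 1.02 for Btg2 and 0.95 for Dusp1, spans reached by 4.79%, 6.61% and 8.31% of tested genes. It was 0.54 for Nr4a1, 0.49 for Ier2 and 0.41 for Jun, spans reached by 32.3%, 38.5% and 49.5%. The median span was 0.74 over the 8 genes, against 0.41 over all genes. TAC B was the highest array for 4 of the 8 (Ier2, Dusp1, Btg2 and Klf4), against 25.7% of all tested genes. It was the lowest for none of them, while TAC A was the lowest for 3 (Fos, Nr4a1 and Ier2). The shares of all genes lowest on these arrays were not counted, so the counts of lowest arrays have no background beside them.

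Among the 28 pairs of the 8 genes, 16 had Pearson's r above 0 over the 6 arrays, with a median of 0.15. At an unadjusted exact permutation p under 0.05 there were 2 pairs. Of the pairs without Dusp1 and Nr4a1, Fos and Ier2 had the highest r, at 0.84 (exact permutation p = 0.0486, adjusted over the pairs 0.681). Their Spearman's rho was 0.77 (exact permutation p = 0.103, adjusted 0.953). Without TAC A and sham B, the arrays farthest from the Fos median, r was 0.74, and with each group centred on its own mean it was 0.84. No pair passed the adjustment. Pairs with Dusp1 or Nr4a1 are counted but not given singly, since their groups do not overlap.

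Among 9947 other genes, the 5 whose pattern over the 6 arrays was most like that of Fos were Fastkd2 (r = 0.981), Aff4 (r = 0.974), Mettl5 (r = 0.974), Shc2 (r = 0.969) and Dhx8 (r = 0.965). In all, 23 genes had r of at least 0.9. Their spans were smaller than that of Fos: Shc2 spanned 0.86 on the log2 scale, Dhx8 0.38, Fastkd2 0.33, Mettl5 0.10 and Aff4 0.04. With 6 arrays and 9947 genes compared, such values are a description of these arrays. Egr1, another early gene, had r of 0.56 with Fos and ranked 902.

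Egr1, the zinc finger factor often induced together with Fos, measured 9.31, 8.63 and 9.11 on the TAC arrays, against 10.66, 10.61 and 9.87 on the sham arrays, and was not called (limma adjusted p = 0.512). It shared with Fos the high values on sham A and sham B, but not that of TAC B, which was the third highest array for Fos and the lowest for Egr1.

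Among 14 further genes of the AP-1 and related leucine zipper families, 7 passed the floor, 0 were called, and the median difference was 0.05. At an unadjusted p under 0.05, 1 was lower and 0 were higher in TAC. This was Jdp2, whose product pairs with Jun and represses AP-1, at 8.85, 8.64 and 8.67 on the TAC arrays, against 9.05, 8.93 and 9.09 on the sham arrays. The groups did not overlap, with a difference of -0.30 (SE 0.09) and a limma adjusted p of 0.516. Next by p were Atf4, the effector of the integrated stress response, at 0.33, the small Maf gene Mafg at -0.09, Atf2, which can pair with Jun at CRE sites, at 0.05, Mafk at 0.07 and Maf at 0.05. The 7 dim genes included Fosl1, at 2.31 to 2.33 on TAC and 2.33 to 2.41 on sham arrays.

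Among 47 listed names of other immediate-early genes, 45 had a probe set with 1 symbol, 30 passed the floor, 0 were called, and the median difference was 0.11. At an unadjusted p under 0.05, 1 was higher (the clock gene Per1, at 0.58) and 2 were lower (Egr1, at -1.37, and the matricellular gene Ccn1, at -0.50). Every TAC array lay above every sham array for Per1, and below for Egr1, Ccn1 and the phosphatase gene Dusp5, at -0.21. Over all 9955 tested genes, 541 were higher and 331 lower at an unadjusted p under 0.05, and 874 lay above and 905 below without overlap, so the counts of this list, and those of the leucine zipper and upstream lists, are near the background. Gadd45g, a stress-inducible growth arrest gene, differed by 0.34, and Zfp36, whose product destabilises early-gene mRNAs, by -0.29, with overlapping groups. The spans between animals were again wide, with a median of 0.73 over the 6 arrays. TAC B was the highest array for 16 of the 30, against 25.7% of all tested genes, and sham A for 6, against 18.4%.

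**Figure D3:**
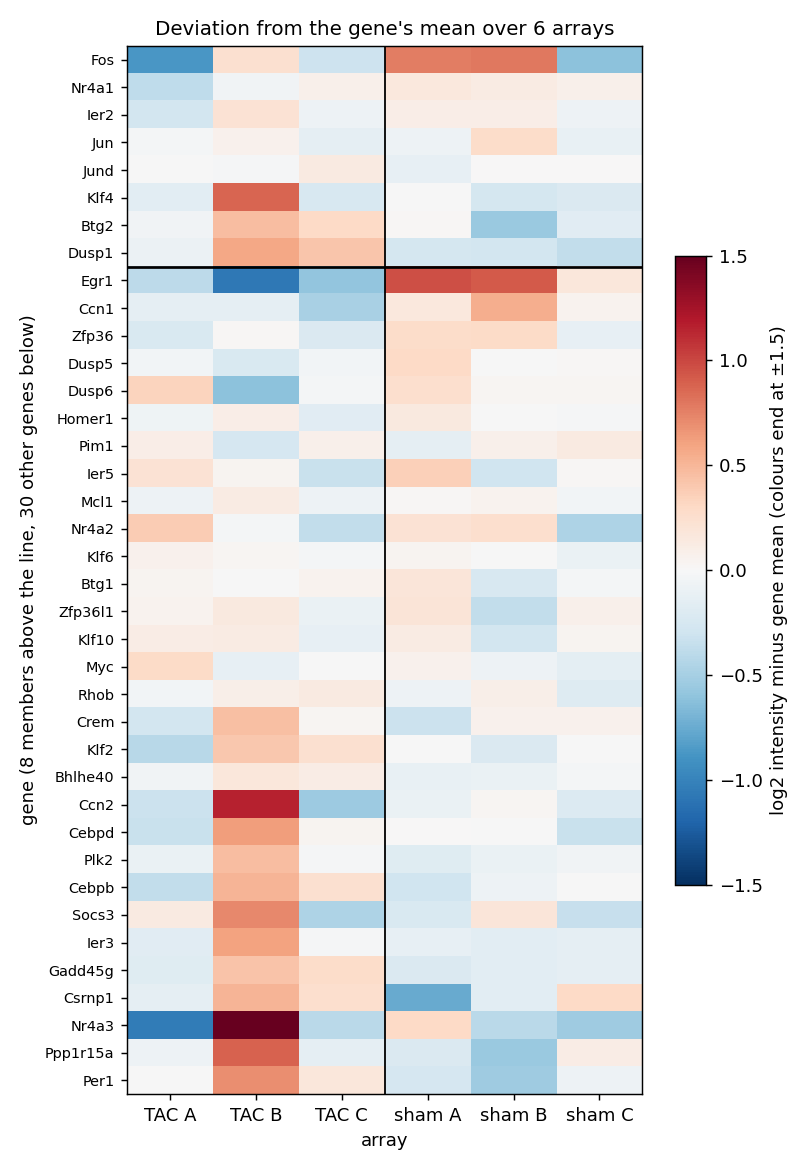
Deviation of log2 intensity from each gene's mean over the 6 arrays, TAC arrays left of sham, for the 8 tested members (above the line) and 30 other tested immediate-early genes (below), each block in order of its TAC minus sham difference. Fos and Egr1 are red on sham A and sham B, and many lower rows are red on TAC B, the highest array for 16 of the 30.

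Upstream of these genes, 28 of 36 listed names of kinases and transcription factors had a probe set with 1 symbol, 27 passed the floor, 0 were called, and the median difference was 0.06. At an unadjusted p under 0.05, 1 was higher and 1 was lower in TAC. Camk4, the calcium-dependent kinase that phosphorylates CREB, measured 7.93, 7.89 and 8.01 on the TAC arrays, against 7.73, 7.66 and 7.54 on the sham arrays, a difference of 0.30 (SE 0.08; limma adjusted p = 0.516). Creb1, which encodes CREB itself, measured 9.03, 8.82 and 8.87 on TAC, against 9.12, 9.22 and 9.14 on sham arrays, a difference of -0.25 (SE 0.09; limma adjusted p = 0.542). Neither pair of groups overlapped. Next by p, Map2k1, the kinase that activates ERK, differed by 0.18 and Camk2b by -0.15, both with groups that did not overlap, and Mapk7 by -0.24 and the CREB coactivator gene Crtc1 by 0.14, with overlap. These genes spanned a median of 0.37 over the 6 arrays.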

How the data were processed

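The deposited values are probe set intensity summaries on a linear scale, 1 array per animal, from Affymetrix GeneChip Mouse Genome arrays. Per the submitters' processing notes, the authors used GCRMA, a method that corrects background by probe sequence, normalizes arrays to each other and combines each probe set's probes. Which version and options they chose is not given in the sources used here. Values near background are compressed, so differences there can be understated. They also leaned to 1 side here, since 87.0% of the dim probe sets had a lower mean in TAC. A small lower value near background is therefore not read as a larger drop.

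The deposited values were log2-transformed with no pseudocount. Of 45101 rows, 64 array controls and 27487 dim probe sets (mean log2 under 4) were left out, and 17550 were tested, TAC against sham, with limma 3.58.1 in R 4.3.3 (lmFit and eBayes, two-sided, Benjamini-Hochberg adjustment), a procedure also tested on simulated data. Intervals are 95% and unadjusted. Gene symbols came from GEO's platform annotation; the probe set with the highest mean stood for a gene (9955 genes). Correlations used exact permutation (scipy 1.17.1); figures were drawn with matplotlib 3.10.9. The members and lists were chosen with earlier results of these data known. Named were all members, up to 6 genes of smallest unadjusted p from each list of related genes, and the 5 genes most correlated with Fos; Fosl1 and the genes named in the closing section were chosen after their values were seen, as was the r of Egr1. No pair of arrays shared more than 8 identical values. Same-letter arrays correlated at 0.08 (A), -0.00 (B) and -0.17 (C) in their deviations from group means, so the letters were not taken as pairs. The number of arrays limits precision.

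Alternatives were no floor, a floor of 6, quantile normalization, a trended robust variance, array weights, a pseudocount of 1, a threshold of 0.10, the mean of a gene's probe sets, the letter in the titles as a block, and leaving out each array in turn. Leaving out sham C together with TAC B, the arrays with the highest fat sums, was added after seeing the data.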

Additional observations from a re-analysis of the deposited data

How the results depend on the processing

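The count of member probe sets called was 0 with all settings tried, including the title letter as a replicate block (0), where the limma adjusted p of Dusp1 was 0.602. Over all probe sets the count was 0, with a range of 0 to 1 when single arrays were dropped: Mir670hg was called without TAC B and Sst without TAC C. The median difference of the member genes was -0.12 to 0.08 over all settings. The members' median deviation had a pooled SD of 0.15 between single arrays, which is not the error of a difference between group means. With single arrays left out, 3 differences changed sign: Ier2 ranged over -0.219 to 0.026 (highest without TAC A), Jun over -0.132 to 0.063 (highest without sham B) and Klf4 over -0.035 to 0.519 (lowest without TAC B). Leaving out both sham C and TAC B put Klf4 at -0.064. Fos, Dusp1, Btg2, Nr4a1 and Jund kept their direction in each alternative that measured them: Fos at -1.38 to -0.35, Dusp1 at 0.43 to 0.80, Btg2 at 0.23 to 0.61, Nr4a1 at -0.34 to -0.11 and Jund at 0.02 to 0.12. For Dusp1 and Nr4a1, whose groups do not overlap, leaving out arrays cannot reverse the sign, so their kept direction adds no support. Settings that change only the floor, the variance or the block leave every gene's difference as it was. Fos was at -1.38 with both sham C and TAC B left out, -1.10 without sham C, -0.91 without TAC B, -0.35 without TAC A, -0.41 without sham A, -0.40 without sham B and -0.45 with array weights. Btg2 was at 0.23 with the mean of its probe sets and 0.31 without sham B. The limma adjusted p over these alternatives was 0.238 to 0.824 for Dusp1 and 0.404 to 0.825 for Fos. Both low ends came with no floor, where the dim probe sets, most of them lower in TAC, entered the adjustment. They are not stronger evidence: limma's unadjusted p was higher there, at 0.0222 against 0.0123 for Dusp1 and 0.266 against 0.206 for Fos. Dim probe sets (Fosb, Junb and the second ones of Jund and Klf4) read close to background. Their TAC minus sham differences were not used, except those of Fosb and Junb in the median with no floor. The single-array values given for Junb and the second Klf4 probe set are description only.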

Other observations

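Several other early genes read highest on TAC B, the array highest for Dusp1, Btg2 and Klf4. It was the highest array for 16 of the 30 other immediate-early genes tested and for 25.7% of all tested genes. Egr1, Dusp5, Dusp6 and Pim1 went the other way and read lowest on TAC B. Of the 7 tested genes of the leucine zipper list, TAC B was the highest array for 3, while Jdp2, Atf2, Mafg and Maf read lowest there. Of those named here, Atf3, Gadd45b and Maff were dim and were not tested, and Maff was under the floor on all 6 arrays, so its values read close to background. Atf3, a stress-induced leucine zipper factor, measured 2.66, 4.19 and 2.74 on TAC A, B and C, against 2.70, 2.75 and 2.73 on sham A, B and C. Nr4a3, the paralogue of Nr4a1, measured 4.18, 7.31 and 4.82 on the TAC arrays, against 5.52, 4.81 and 4.69 on the sham arrays. Gadd45b measured 4.99 on TAC B, against 3.39 and 3.38 on TAC A and C and 3.37 to 3.50 on sham arrays, and Maff measured 3.63 on TAC B, against 2.61 on TAC A and C and 2.63 to 2.67 on sham arrays. Fosl2, a Fos family member, was also highest on TAC B, at 8.33, against 6.90 and 7.08 on TAC A and C and 7.77, 7.60 and 7.05 on sham A, B and C.

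The Egr family gene Egr3, dim on average and under the floor on all TAC arrays and sham C, showed another split, at 3.15, 3.07 and 3.09 on the TAC arrays, against 5.74, 4.92 and 3.18 on sham A, B and C. Sham A and sham B, its highest arrays, were also those with the highest Fos and Egr1 values, while sham C was close to the TAC arrays.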
